A study of Mus musculus with 36 samples.

Results

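The genes described here are 10 members of the NRF2 antioxidant system in mouse kidney: the transcription factor gene Nfe2l2, which encodes NRF2, its inhibitor Keap1, the target genes Hmox1, Nqo1, Gclc, Gclm, Txnrd1 and Srxn1, and the glutathione peroxidase genes Gpx1 and Gpx3. They were taken by symbol from the 24883 rows of the deposited expression tables, and each of the 10 was found once. The rule uses no measured value, but the members and the gene lists below were chosen with earlier results of these data known. Their counts, set beside the share of all genes, are therefore descriptions. All 10 passed the filter of a mean of at least 1 FPKM.

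Kidneys came from wild-type male mice of the strain C57BL/6J, named C57BL/6 in the series' design, housed under 12 h light and 12 h dark. From 6 weeks of age they had free access to normal chow or to a high-fat diet, and the labels give 16 weeks for the harvest. Tissue was taken at Zeitgeber time (ZT, hours after lights on) 0, 4, 8, 12, 16 and 20, with 3 libraries for each diet and time, 18 for each diet and 36 in 12 groups in all. In every label the diet's tag mentions ZT3, so the times used are those of the titles. No mouse carried an engineered allele, and the composition of the high-fat diet is not given in the sources used here. The p-values of levels measure the spread between the 3 libraries of a group, and those of rhythms the spread of libraries around the fitted curve.

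NRF2 is a leucine zipper transcription factor that KEAP1 marks for destruction in unstressed cells. Electrophiles and oxidants modify cysteines of KEAP1, NRF2 then accumulates, pairs with a small MAF protein and binds antioxidant response elements in front of its target genes. Its activity is controlled mainly at the protein level, so the transcript of Nfe2l2 itself is not a measure of it. In kidney the proximal tubule, which consumes much oxygen, makes many of these enzymes and is the source of most of the secreted peroxidase GPX3 in plasma.

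Promoter sequences, from 250 bases before to 50 bases after an annotated transcription start, were read from RefSeq (build GRCm38.p6). Of the 10 members 8 matched, with 10 windows, of which 3 belonged to Txnrd1. The core of the antioxidant response element, TGACNNNGC, was searched on both strands and occurred in 4 of the 10 windows, against 12.4% of 32851 mouse promoter windows of the same length. The E-box CACGTG, the site of the clock factors CLOCK and BMAL1, occurred in 0 of the 10, against 7.15%. The matches are shown because they place the motif that gives the system its name. Each sequence is written 5′ to 3′ on the strand of its gene, with the match in capitals. The match lies on the gene's own strand in Nfe2l2 and on the opposite strand in the other genes.
Nfe2l2: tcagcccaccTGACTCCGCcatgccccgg
Gclm: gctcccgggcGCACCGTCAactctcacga
Txnrd1: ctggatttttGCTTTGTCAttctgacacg
Srxn1: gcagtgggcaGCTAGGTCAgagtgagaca
The Nfe2l2 stretch (chr2:75704885-75704913, gene on the minus strand) has its match at position -240 from the start site, and the Gclm stretch (chr3:122245413-122245441, plus strand) at -134. The Txnrd1 stretch (chr10:82859104-82859132, plus strand) has it at -92 from 1 of 3 annotated starts. The Srxn1 stretch (chr2:152105542-152105570, plus strand) has it downstream of the start, at position 29. A match in letters is not evidence of binding, and no match says nothing about sites outside these windows. Only the letters TGACNNNGC were searched, so sites of other spelling within the windows are not marked.

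Values were deposited as FPKM, fragments scaled to transcript length and library size, so levels of different genes can be compared per length. Proximal tubule markers summed to between 5548 and 8808 FPKM per library, and Slc34a1, the phosphate carrier of that segment, was detected at 1801 FPKM or more in every library. The depth of sequencing is not given, but values of low genes stepped in whole multiples and gave relative depths from 0.324 to 1.39 between libraries. Transcripts of adrenal gland reached a summed 3346 FPKM in a normal chow library and at most 4.62 FPKM under the high-fat diet. Adipocyte markers summed to a median of 849 FPKM under normal chow (207 to 2922) and 298 FPKM under the high-fat diet (89.2 to 829). The cosine fit placed the peak of the clock gene Arntl at 22.1 h under normal chow and 20.8 h under the high-fat diet.

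The 10 genes covered a wide span of levels. Gpx3, whose product is the secreted glutathione peroxidase of plasma, averaged 22993 ± 3085 FPKM (SD, n = 36 libraries), ranked 2 among all genes and held 3.74% of the summed FPKM. Gpx1, the cytosolic glutathione peroxidase, averaged 3016 ± 405 FPKM and ranked 10. Gclm, the modifier subunit of the enzyme that starts glutathione synthesis, followed at 70.1 ± 9.43 FPKM. These 3 kept this order in 36 of 36 libraries.

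A group of enzyme genes lay close together below them. Txnrd1, the cytosolic thioredoxin reductase, averaged 36.5 ± 5.75 FPKM, Gclc, the catalytic subunit of glutamate-cysteine ligase, 32.8 ± 10 FPKM, Nqo1, a quinone reductase, 30.97 ± 5.24 FPKM, and Hmox1, the inducible heme oxygenase, 30.94 ± 8.54 FPKM. Their order was not fixed: Txnrd1 was above Gclc in 25 of 36 libraries, Gclc above Nqo1 in 16, and Nqo1 above Hmox1 in 19. Hmox1 was above Srxn1, which encodes sulfiredoxin, in 24 libraries. Srxn1 averaged 26.1 ± 3.31 FPKM, Nfe2l2 20.0 ± 4.64 FPKM and Keap1 14.6 ± 1.09 FPKM. Srxn1 exceeded Nfe2l2 in 35 libraries and Nfe2l2 exceeded Keap1 in 32. The catalytic subunit Gclc was thus measured at a lower level per length than its modifier Gclm, and it varied more.

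The first comparison asked whether the level over the whole day differed between diets, by setting the 6 group means of the high-fat diet against the 6 of normal chow on the log2(FPKM + 0.5) scale. Gclc, Hmox1, Nqo1 and Keap1 were lower under the high-fat diet. Lower calls therefore covered 4 of the 10 members, where 11.4% of the 11144 genes tested were lower. Higher calls covered 0 of 10 (limma, 5.25% of all genes), and 0 members were higher at an unadjusted p under 0.05. The members' median change was -0.08 log2, against -0.03 over all genes tested. In bulk tissue fewer cells of a type and less RNA per cell cannot be told apart. The diets were deposited as separate tables, and whether 1 normalization run made both is not given in the sources used here, so each level set across diets also rests on how the tables were scaled. Over all genes 585 were higher and 1265 lower as deposited, and 836 higher and 835 lower after rescaling libraries by median ratios, and the calls of Gclc, Hmox1 and Nqo1 held under both.

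**Figure D1:**
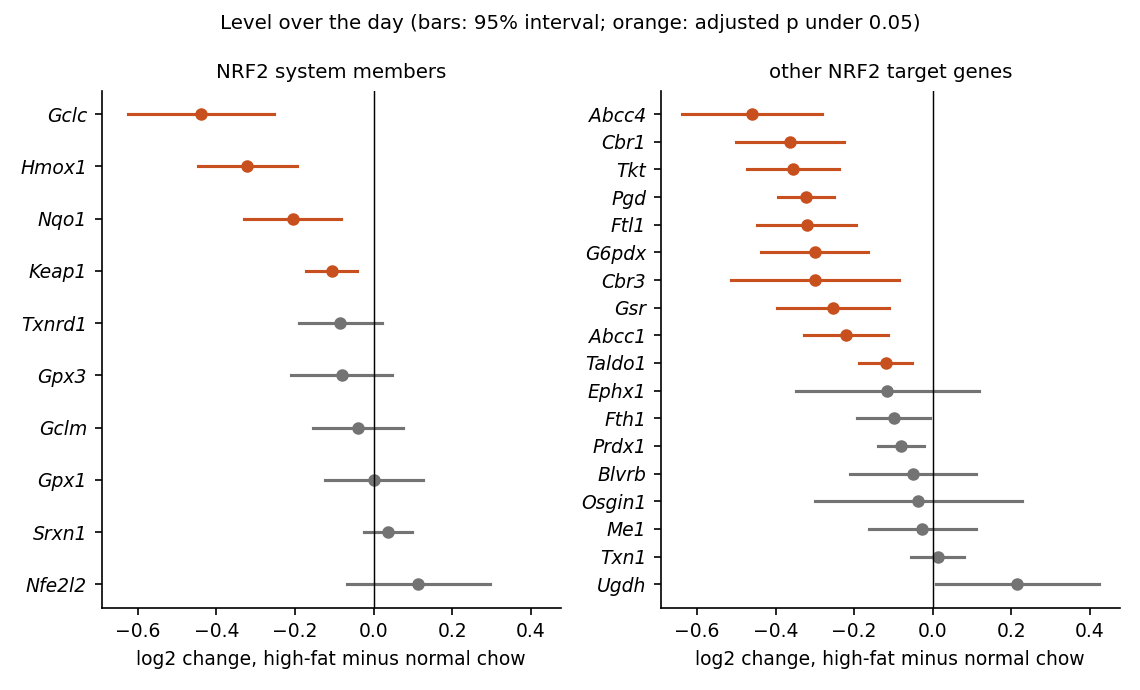
Change in level over the day, high-fat diet minus normal chow, on the log2(FPKM + 0.5) scale (x axis), for the 10 members (left) and 18 other NRF2 target genes (right). Points are estimates, bars 95% intervals, and orange marks an adjusted p under 0.05. Gclc (-0.44), Hmox1 (-0.32), Nqo1 (-0.21) and Keap1 (-0.11) lie to the left of 0 with their intervals, as do 10 of the other targets that passed.

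Gclc (chromosome 9, 77754535 to 77794485, plus strand of GRCm38, GENCODE M21) encodes the subunit that joins glutamate to cysteine, the step that limits the making of glutathione. Under normal chow it measured 29.2, 29.4 and 21.2 FPKM at ZT0, 39.5, 37.0 and 60.4 at ZT4, 56.6, 38.1 and 34.1 at ZT8, 32.0, 38.4 and 37.4 at ZT12, 46.6, 41.2 and 29.8 at ZT16, and 31, 45.7 and 32.1 at ZT20. Under the high-fat diet the values were 28.3, 20.9 and 18.6 FPKM at ZT0, 33.7, 26.6 and 22.9 at ZT4, 49.4, 38.3 and 28.8 at ZT8, 30.1, 25.4 and 20.9 at ZT12, 32.9, 25.6 and 31.2 at ZT16, and 21.9, 22.0 and 21.9 at ZT20. The high-fat mean was lower at 6 of 6 times, and at ZT4, ZT12 and ZT20 every high-fat library lay below every normal chow library, as for 9.43%, 8.61% and 10.3% of genes at these times. At the other times the ranges overlapped. Over the day Gclc averaged 37.8 ± 9.78 FPKM under normal chow and 27.7 ± 7.57 FPKM under the high-fat diet (SD, n = 18 each). It fell by 0.44 log2 (SE 0.09, limma adjusted p = 0.000957), to 0.738-fold with a 95% interval of 0.649 to 0.839. Its partner Gclm (chromosome 3, 122245557 to 122270732, plus strand) measured 71.1 ± 9.10 FPKM under normal chow and 69.2 ± 9.93 FPKM under the high-fat diet, and its change of -0.04 log2 did not pass (95% interval -0.16 to 0.07, adjusted p = 0.683). Whether the changes of the 2 subunits differ from each other was not tested.

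Hmox1 (chromosome 8, 75093621 to 75100589, plus strand) encodes the enzyme that opens the heme ring and releases iron, carbon monoxide and biliverdin. Its normal chow values were 43.7, 33.7 and 54.5 FPKM at ZT0, 22.8, 32.1 and 26.1 at ZT4, 22.7, 25.1 and 28.0 at ZT8, 25.3, 29.0 and 30.6 at ZT12, 43.4, 40.5 and 41.4 at ZT16, and 37.4, 37.8 and 48.2 at ZT20. Under the high-fat diet they were 28.0, 31.1 and 29.6 FPKM at ZT0, 17.0, 24.3 and 25.4 at ZT4, 21.7, 18.1 and 21.7 at ZT8, 22.2, 27.1 and 25.6 at ZT12, 33.8, 34.0 and 40.3 at ZT16, and 30.3, 32.7 and 28.5 at ZT20. In both diets Hmox1 was high at ZT16, ZT20 and ZT0 and low from ZT4 to ZT12. Every high-fat library was below every normal chow library at ZT0, ZT8, ZT16 and ZT20, as for 12.8%, 8.16%, 8.06% and 10.3% of genes, while the groups overlapped at ZT4 and ZT12. The daily mean was 34.6 ± 9.29 FPKM under normal chow and 27.3 ± 5.99 FPKM under the high-fat diet. Hmox1 fell by 0.32 log2 (SE 0.06, limma adjusted p = 0.000428), to 0.8005-fold (95% interval 0.734 to 0.874).

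Hmox1 is also made in macrophages that take up red blood cells. Macrophage markers summed to a median of 110 FPKM under normal chow (80.6 to 216) and 146 FPKM under the high-fat diet (92.8 to 242), and 2 of the 7 tested, Cd68 and C1qb, were higher under the high-fat diet while 0 were lower (limma, 5 higher and 0 lower at an unadjusted p under 0.05). Cd163, the hemoglobin receptor of macrophages, did not exceed 0.486 FPKM in any library. Red blood cell transcripts summed to a median of 1066 FPKM under normal chow (380 to 2632) and 747 FPKM under the high-fat diet (528 to 1481), and 3 of the 4 tested, Hbb-b1, Hbb-b2 and Alas2, were lower. Among all genes 5.25% were higher and 11.4% lower. With a red blood cell score as a covariate, added after the data were seen, the change of Hmox1 was -0.25 log2 (adjusted p = 0.0278). With an adipocyte score as a covariate it was -0.28 log2 (adjusted p = 0.0143), and without the 4 libraries with adrenal transcripts -0.29 log2 (adjusted p = 0.00141).

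Nqo1 (chromosome 8, 107388225 to 107403206, minus strand) encodes the enzyme that reduces quinones in a single step without releasing radicals. It measured 30.6, 30.9 and 23.9 FPKM at ZT0, 30.4, 36 and 42.5 at ZT4, 39.3, 39.6 and 38.8 at ZT8, 34.2, 34.5 and 31.7 at ZT12, 31.2, 34.1 and 31.9 at ZT16, and 28.6, 31.3 and 27.3 at ZT20 under normal chow. Under the high-fat diet it measured 33.4, 26.5 and 20.4 FPKM at ZT0, 35.0, 33.3 and 26.9 at ZT4, 42.0, 27.7 and 28.9 at ZT8, 24.8, 29.1 and 27.5 at ZT12, 28.7, 29.9 and 28.4 at ZT16, and 27.6, 23 and 24.9 at ZT20. At ZT12 and ZT16 all high-fat values of Nqo1 lay below those of normal chow, as for 8.61% and 8.06% of genes. The groups overlapped at the other times, and the high-fat mean was lower at 6 of 6. Nqo1 averaged 33.2 ± 4.74 FPKM under normal chow and 28.8 ± 4.89 FPKM under the high-fat diet. It fell by 0.21 log2 (SE 0.06, limma adjusted p = 0.0178), to 0.867-fold (95% interval 0.796 to 0.944).

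Keap1 (chromosome 9, 21229730 to 21239361, minus strand), the adaptor that delivers NRF2 to a CUL3 ubiquitin ligase, measured 17.0, 14.2 and 17.2 FPKM at ZT0, 16.3, 14.7 and 14.5 at ZT4, 14.9, 14.2 and 15.9 at ZT8, 13.2, 15.5 and 13.7 at ZT12, 15.2, 15.2 and 14.2 at ZT16, and 15.3, 16.0 and 15.3 at ZT20 under normal chow. The high-fat values were 15.3, 15 and 14.5 FPKM at ZT0, 14, 13.9 and 14.8 at ZT4, 12.6, 12.9 and 14.1 at ZT8, 14.3, 13.8 and 13.6 at ZT12, 13.5, 14.3 and 15.1 at ZT16, and 12.9, 13.5 and 13.9 at ZT20. At ZT8 and ZT20 all high-fat values of Keap1 were below those of normal chow, as for 8.16% and 10.3% of genes. The groups overlapped at the other times, and the high-fat mean was lower at 6 of 6. The means were 15.1 ± 1.08 and 14 ± 0.769 FPKM. The change was -0.11 log2 (SE 0.03, limma adjusted p = 0.0187), to 0.929-fold (95% interval 0.888 to 0.971). This call depended on the scaling, since the change was -0.08 log2 with median ratios (adjusted p = 0.109) and -0.06 log2 with each library's trend over GC content removed (adjusted p = 0.258), which left 3 of 10 members lower in each case. Keap1 shares 510 exonic bases with an antisense gene. Gclm shares 296 with a transcript of the other strand and 244 with a pseudogene of its own strand. The library kit does not mark strand, so reads on either strand there cannot be assigned to 1 gene.

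Nfe2l2 (chromosome 2, 75675513 to 75704641, minus strand) measured 19.2 ± 4.61 FPKM under normal chow and 20.8 ± 4.65 FPKM under the high-fat diet, a change of 0.11 log2 that did not pass (95% interval -0.07 to 0.30, limma adjusted p = 0.419). Without ZT0 and ZT4 it was 0.23 log2 (adjusted p = 0.0494), without the 4 libraries with adrenal transcripts 0.01 log2 (adjusted p = 0.967), and with the added red blood cell score 0.07 log2 (adjusted p = 0.760). Txnrd1 (chromosome 10, 82833951 to 82897712, plus strand), which keeps thioredoxin reduced, measured 37.6 ± 5.70 and 35.5 ± 5.76 FPKM (-0.09 log2, interval -0.19 to 0.02, adjusted p = 0.280). It passed without the 4 libraries with adrenal transcripts (-0.15 log2, adjusted p = 0.0254), when replicate 4 alone stood for normal chow at ZT4, with Txnrd1 at 43.7 FPKM and, of all 36, the lowest trend over GC content (-0.37 log2 per 10 points of GC). Srxn1 (chromosome 2, 152105516 to 152111376, plus strand), which repairs overoxidized peroxiredoxins, measured 25.7 ± 2.99 and 26.4 ± 3.66 FPKM (0.04 log2, interval -0.03 to 0.10, adjusted p = 0.448).

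The peroxidases, which use a selenocysteine to reduce peroxides with glutathione, showed no call. Gpx1 (chromosome 9, 108338903 to 108340343, plus strand) measured 3021 ± 465 FPKM under normal chow and 3012 ± 347 FPKM under the high-fat diet, a change of 0.00 log2 (interval -0.12 to 0.13, adjusted p = 0.995). Gpx3 (chromosome 11, 54902453 to 54910377, plus strand) measured 23715 ± 3644 and 22270 ± 2284 FPKM (-0.08 log2, interval -0.21 to 0.05, adjusted p = 0.417).

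At single times, with 3 libraries against 3, 0 of the 10 members passed the adjusted threshold (limma). The share of all genes called in either direction was 1.59% at ZT0, 1.61% at ZT4, 0.332% at ZT8, 0.368% at ZT12, 0.556% at ZT16 and 0.26% at ZT20. The lowest adjusted p of a member was that of Hmox1 at ZT0 (-0.54 log2, SE 0.15, limma adjusted p = 0.0675), where the means were 44.0 ± 10.4 and 29.6 ± 1.52 FPKM. At an unadjusted p under 0.05 there were 1 member each at ZT0 (Hmox1), ZT4 (Gclc), ZT8 (Keap1) and ZT12 (Gclc), 0 at ZT16 and 3 at ZT20 (Keap1, Hmox1 and Gclc). For Gclc the differences at single times ran from -0.14 log2 at ZT8 to -0.69 at both ZT4 and ZT20 (SE 0.22).

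The second comparison asked which members followed a 24 h cosine within each diet. Under normal chow Hmox1, Nqo1 and Srxn1 passed, 3 of 10 where 7.77% of all genes did. Hmox1 and Srxn1 passed under the high-fat diet, 2 of 10 where 7.3% of all genes did, and both diets shared them where 3.49% of all genes passed in both. The members' median peak-to-trough difference was 0.29 log2 in each diet, against 0.23 and 0.19 log2 over all genes.

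**Figure D2:**
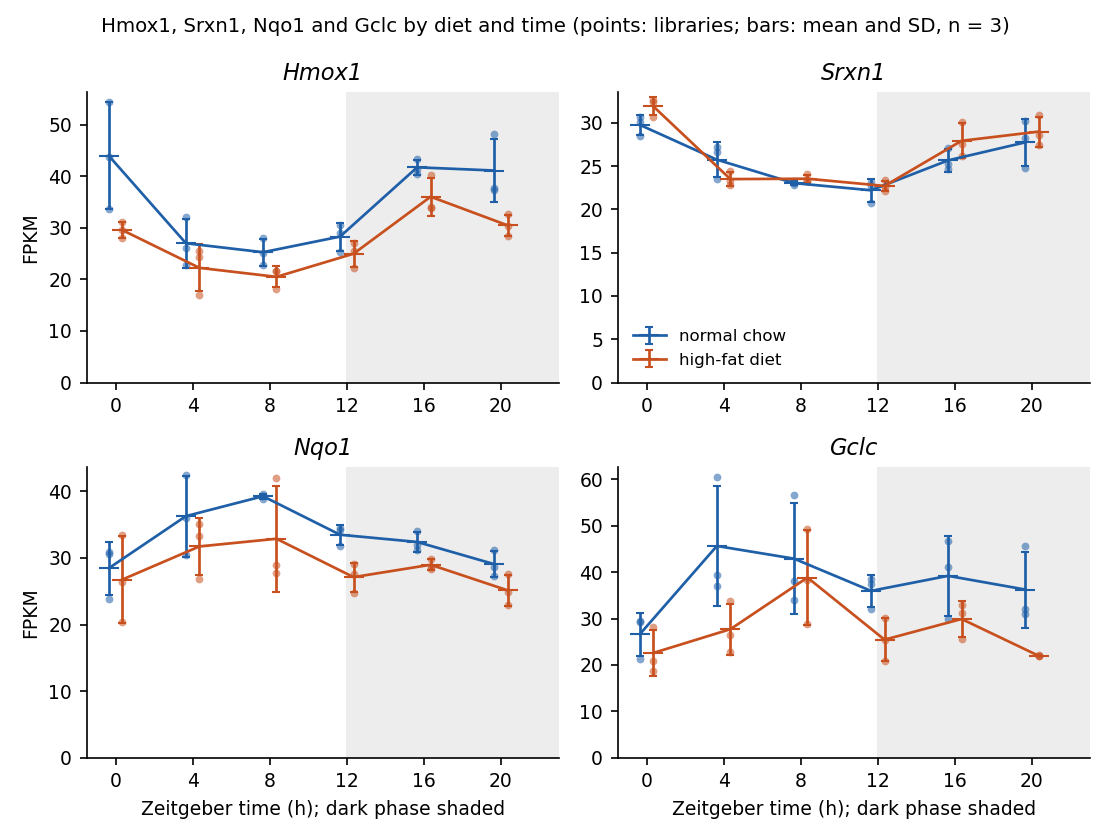
FPKM (y axis) of Hmox1, Srxn1, Nqo1 and Gclc by Zeitgeber time (x axis, dark phase shaded), normal chow in blue and high-fat diet in orange. Points are libraries and bars the mean and SD of 3. Hmox1 is highest from ZT16 to ZT0 in both diets, at mean levels of 41.1 to 44.0 FPKM under normal chow and 29.6 to 36.04 FPKM under the high-fat diet.

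In the cosine fits Hmox1 had the widest daily swing of the 10 in both diets. With time as a factor the span between the highest and the lowest group mean under the high-fat diet was 0.80 log2 for Hmox1 and 0.84 log2 for Nfe2l2. Under normal chow the fitted curve rose 1.83-fold between its trough and its peak (0.87 log2, SE 0.14, limma adjusted p = 0.00219) and 1.67-fold under the high-fat diet (0.74 log2, SE 0.12, adjusted p = 0.00153). The peak fell at 19.9 ± 0.611 h and 18.6 ± 0.602 h (SE), in the later dark phase. In the order of the 12 group means the normal chow groups of ZT0 (44.0 ± 10.4 FPKM), ZT16 (41.7 ± 1.5) and ZT20 (41.1 ± 6.14) stood first and overlapped one another, and the high-fat group of ZT8 (20.5 ± 2.06) stood last. The high-fat ZT16 libraries, at 36.04 ± 3.72 FPKM, did not overlap those of ZT20 (30.5 ± 2.10), the next group down. How many of all genes separate between these times was not measured. Both calls held with time as a factor in place of the cosine.

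Srxn1 varied less but closely between libraries of a group. Under normal chow it measured 30.7, 30.1 and 28.5 FPKM at ZT0, 27.1, 23.5 and 26.6 at ZT4, 22.8, 23.3 and 23.02 at ZT8, 22.7, 23.2 and 20.7 at ZT12, 27.1, 24.7 and 25.2 at ZT16, and 30.2, 24.8 and 28.2 at ZT20. Under the high-fat diet it measured 32.7, 30.7 and 32.3 FPKM at ZT0, 23.3, 24.4 and 22.8 at ZT4, 24.1, 23.3 and 23.3 at ZT8, 23.4, 22.1 and 22.6 at ZT12, 30.1, 26.1 and 27.5 at ZT16, and 27.4, 30.9 and 28.6 at ZT20. In each diet the ZT0 libraries were above all those of ZT8 and ZT12, and the share of all genes separated in this way was not measured. The curve rose 1.31-fold under normal chow (0.39 log2, SE 0.07, limma adjusted p = 0.00479) with a peak at 22.5 ± 0.682 h, and 1.37-fold under the high-fat diet (0.46 log2, SE 0.07, adjusted p = 0.00186) with a peak at 21.2 ± 0.614 h. With time as a factor the normal chow call was lost (adjusted p = 0.0652).

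Nqo1 had its peak in the light phase, on the opposite side of the day from Hmox1. Under normal chow the curve peaked at 8.48 ± 0.899 h and rose 1.34-fold (0.42 log2, SE 0.10, limma adjusted p = 0.0325), with group means from 28.5 ± 3.97 FPKM at ZT0 to 39.3 ± 0.400 FPKM at ZT8. This call was lost without any 1 of the ZT8 libraries (replicates 1, 4 and 5) or of ZT20 replicates 1 and 5, with adjusted p from 0.0605 to 0.0743, and with time as a factor (adjusted p = 0.125). Under the high-fat diet the curve of Nqo1 measured 0.30 log2 (SE 0.14, adjusted p = 0.379) with a fitted peak at 7.43 h. Gclc had fitted peaks at 9.34 h and 9.17 h, with 0.39 log2 (SE 0.21, adjusted p = 0.477) under normal chow and 0.56 log2 (SE 0.18, adjusted p = 0.157) under the high-fat diet. Its call under the high-fat diet appeared without ZT12 replicate 5 (adjusted p = 0.0498).

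**Figure D3:**
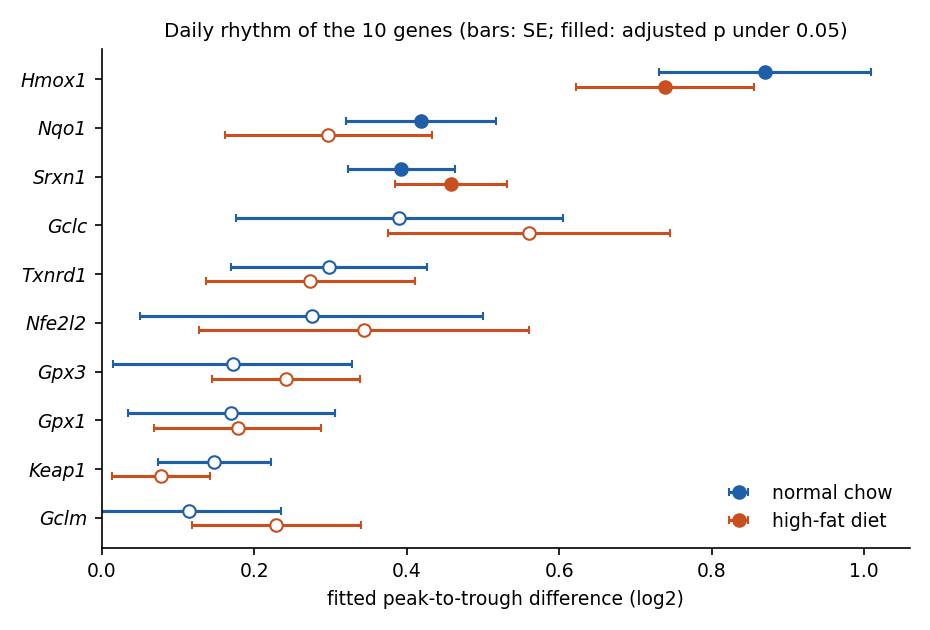
Peak-to-trough difference of the fitted 24 h cosine in log2 (x axis) for each member (y axis) under normal chow (blue) and the high-fat diet (orange). Bars are standard errors and filled points passed the adjusted threshold of 0.05. Hmox1 stands at 0.87 and 0.74 log2, Srxn1 at 0.39 and 0.46, and the other filled point is Nqo1 under normal chow at 0.42.

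The third comparison tested whether the rhythm itself differed between diets. None of the 10 passed (limma, 0 of 10, where 0.0269% of all genes did), and 0 of 10 had an unadjusted p under 0.05, where 3.17% of genes did. The peak of Hmox1 was earlier by a fitted -1.33 ± 0.858 h and that of Srxn1 by -1.36 ± 0.917 h, in each case a difference of less than 2 standard errors. That Nqo1 passed under normal chow and not under the high-fat diet is not a difference between diets (unadjusted p of the difference 0.667).

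Nfe2l2 and Txnrd1 had means that alternated between successive harvests. From ZT0 to ZT20 the means of Nfe2l2 were 24.3, 17.7, 19.3, 15.3, 21.7 and 16.8 FPKM under normal chow and 24.4, 14.4, 23.1, 18.4, 25.4 and 19.0 FPKM under the high-fat diet. Those of Txnrd1 were 38.9, 35.2, 36.1, 31.4, 45.5 and 38.5 FPKM, and 37.3, 29.8, 37.1, 30.0, 43.5 and 35.1 FPKM. In both genes and both diets the means at ZT0, ZT8 and ZT16 were above that of the time that followed. The pattern was not particular to them. In Gpx1 under both diets, and in Gpx3 under the high-fat diet, the means at ZT0, ZT8 and ZT16 were below that of the time that followed. The share of all genes that alternate was not measured. Neither Nfe2l2 nor Txnrd1 passed the test of a 24 h cosine. With time as a factor Nfe2l2 (adjusted p = 0.0148), Txnrd1 (0.0163) and Gclc (0.0363) joined Hmox1 and Srxn1 under the high-fat diet, 5 of 10, but 28.4% of all genes passed there and 3.37% under normal chow, where 1 member, Hmox1, passed. Under normal chow the test with time as a factor gave adjusted p = 0.395 for Nfe2l2 and 0.198 for Txnrd1 (limma). The spread there was wide, with Nfe2l2 at 10.6 to 25.9 FPKM at ZT4. What sets the alternation was not tested.

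The median levels of most members differed between libraries with low and high values of a library property that is computed from these same values. For each library the trend of its values over transcript GC content was measured in log2 per 10 points of GC, and it ran from -0.37 to 0.42. A split of libraries by this trend tends by construction to set GC-rich genes apart from GC-poor ones. The medians below are therefore descriptions and not a test. The 6 lowest trends came from ZT4, ZT8 and ZT16 only. The 6 highest came from normal chow, apart from high-fat ZT4 replicate 5. Diet and harvest time thus differ between the 2 sets, and the medians below cannot separate them from the trend. In the 6 libraries with the lowest trends (-0.37 to -0.14) Nfe2l2 measured 22.1 to 28.2 FPKM with a median of 25.5, and in the 6 with the highest (0.14 to 0.42) 9.46 to 23.1 FPKM with a median of 13.8. Txnrd1 likewise had medians of 43.6 and 32.1 FPKM, Gclm of 79.8 and 63.7, Gclc of 48.02 and 33.1 and Nqo1 of 35.3 and 28.9 FPKM. For Gpx3 the medians were 19803 and 25840 FPKM (15453 to 21625 and 21980 to 28593), and for Gpx1 2669 and 3489 FPKM. Of the members only Gpx3 had no overlap between the 2 sets of libraries. The share of all genes without overlap was not measured. Keap1 had 14 and 15.7 FPKM, Hmox1 24.4 and 28.5 FPKM, and Srxn1 25.4 and 25.2 FPKM. Transcript GC was 46.8% for Nfe2l2, 49.7% for Txnrd1 and 42.1% for Gclm, against 57.2% for Gpx1, 56.0% for Gpx3 and 53.3% for Srxn1. With the trend removed the level changes were -0.30 log2 for Hmox1, -0.23 for Nqo1 and -0.45 for Gclc, and each passed. With time as a factor and the trend removed, a setting added after the data were seen, the span between the highest and the lowest high-fat group mean was 0.77 log2 for Nfe2l2 (limma adjusted p = 0.0153), against 0.84 before removal. For Txnrd1 it was 0.53 log2 (limma adjusted p = 0.0167), against 0.54. Removal shifts a gene in proportion to its distance from the mean GC. In normal chow ZT4 replicate 4, which had the lowest trend, Txnrd1 went only from 43.7 to 43.2 FPKM and Nfe2l2 from 25.9 to 23.8 FPKM. Whether the alternation depends on the trend therefore cannot be read from these spans. The source of the trend was not tested.

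**Figure D4:**
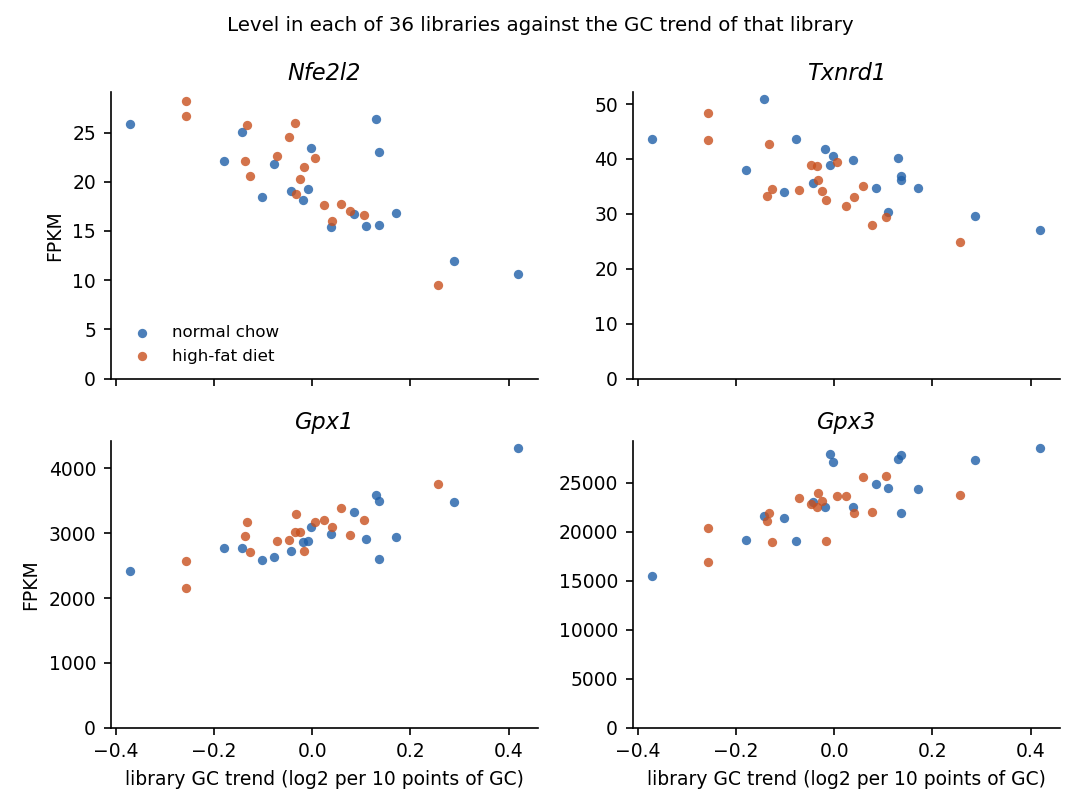
FPKM (y axis) of Nfe2l2, Txnrd1, Gpx1 and Gpx3 in each of 36 libraries against the library's trend over transcript GC content (x axis, log2 per 10 points of GC), normal chow in blue and high-fat diet in orange. Nfe2l2 and Txnrd1 are lower and Gpx1 and Gpx3 higher at high trends, with Nfe2l2 at 9.46 to 23.1 FPKM in the 6 libraries with trends from 0.14 to 0.42. The trend is computed from the same values, so such slopes are in part built in.

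Correlations of the members with each other across the 36 libraries are descriptions, since the points share diet, time and library properties such as the GC trend. Nqo1 and Gclc correlated at r = 0.77 (0.59 after group means were removed), Nfe2l2 and Txnrd1 at 0.78 (0.89), and Gpx1 and Gpx3 at 0.79 (0.84). Gclm correlated with Gclc at 0.66 (0.74), with Nqo1 at 0.56 (0.66), with Txnrd1 at 0.60 (0.80) and with Nfe2l2 at 0.45 (0.71). Txnrd1 correlated with Nqo1 at 0.21 and with Gclc at 0.34, and within groups at 0.64 with each. Nfe2l2 correlated with Nqo1 at 0.03 and with Hmox1 at 0.20, and within groups at 0.51 and -0.18. Hmox1 and Gclc, the members with the lowest high-fat to chow ratios, correlated at -0.16, and within groups at -0.41.

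Among the 6900 genes with a mean of 5 FPKM or more, those most like each member that passed a test were listed by Pearson's r over the 36 libraries. For Hmox1 they were Dynll1 (0.83), a dynein light chain, Tuba1c (0.83), an alpha tubulin, and Hspe1 (0.78), the co-chaperone of mitochondrial HSP60. For Srxn1 they were Slc16a1 (0.90), a monocarboxylate transporter, Ndrg1 (0.88) and Ppm1h (0.86). Those of Nqo1 were Gclc (0.77), Tmigd1 (0.75) and Akr1c13 (0.75), and those of Gclc were Ugt3a1 (0.83), Akr1c13 (0.81) and Tmigd1 (0.80). Those of Keap1 were Rnf25 (0.81), Adsl (0.79) and Gas2l1 (0.79).

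Around the members, 10 further regulators and partners of NRF2 were tested, and 1 was higher and 1 lower (5.25% and 11.4% of all genes). The small MAF proteins, which pair with NRF2 on DNA, went opposite ways. Mafg averaged 7.30 ± 2.44 FPKM under normal chow and 5.34 ± 1.09 FPKM under the high-fat diet and fell by 0.39 log2 (SE 0.07, limma adjusted p = 0.000162). Mafk averaged 8.26 ± 0.916 and 9.49 ± 1.48 FPKM and rose by 0.18 log2 (SE 0.05, adjusted p = 0.0071). Sqstm1, an adaptor that binds KEAP1, had -0.06 log2 (adjusted p = 0.0813), and Bach1, a repressor of Hmox1, 0.15 log2 (adjusted p = 0.347). Mafk followed a rhythm in both diets, with peaks at 4.36 h and 5.63 h, and Mafg under normal chow, with a peak at 2.63 h (adjusted p = 0.0213) against 0.542 under the high-fat diet.

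Of 18 other NRF2 target genes tested, 10 were lower under the high-fat diet and 0 higher (limma, with 12 lower and 1 higher at an unadjusted p under 0.05), with a median of -0.17 log2. Over all genes 11.4% were lower and 5.25% higher. The count of lower genes ran from 7 to 10 over the settings that kept all libraries or left out a named set, and from 9 to 11 without single libraries. Pgd and Tkt, enzymes of the pentose phosphate pathway that supplies NADPH, averaged 61.7 ± 7.25 and 99.6 ± 21.6 FPKM under normal chow and 49.1 ± 2.32 and 76.2 ± 4.31 FPKM under the high-fat diet. Pgd fell by 0.32 log2 (SE 0.03) and Tkt by 0.36 log2 (SE 0.06). Cbr1, a carbonyl reductase, fell by 0.36 log2 (SE 0.07), and Abcc4, an efflux pump, by 0.46 log2 (SE 0.09). The other genes that fell were G6pdx and Taldo1 of the same pathway, the glutathione reductase gene Gsr, Cbr3, Abcc1 and the ferritin light chain gene Ftl1, named to complete the count after their values were seen. Ftl1 has near-identical copies in the genome, so its value is uncertain. Of the 18, 2 were rhythmic under the high-fat diet, Ephx1 with a peak at 10.9 h (adjusted p = 0.0094) and Osgin1 at 13.6 h (adjusted p = 0.0268), and 0 were under normal chow (limma, 6 at an unadjusted p under 0.05). The shares of all genes with a rhythm were 7.3% under the high-fat diet and 7.77% under normal chow.

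Glutathione and peroxide handling gave calls in both directions among 21 genes, with 4 higher, 2 lower and a median of 0.01 log2. Of all genes 5.25% were higher and 11.4% lower. The counts ran from 1 to 5 higher and 0 to 2 lower over the other settings, and from 2 to 5 higher and 1 to 3 lower without single libraries. Prdx6, a peroxiredoxin that works with glutathione, averaged 87.4 ± 6.13 FPKM under normal chow and 100.06 ± 5.58 FPKM under the high-fat diet and rose by 0.20 log2 (SE 0.03). Msra, a methionine sulfoxide reductase, rose by 0.15 log2 (SE 0.04), and catalase, Cat, by 0.14 log2 (SE 0.04). Gpx8, a peroxidase of the endoplasmic reticulum, fell by 0.25 log2 (SE 0.08). Txnrd3 was rhythmic in both diets, with peaks at 6.38 h and 4.97 h. The mitochondrial Txnrd2 passed under the high-fat diet, with a peak at 5.30 h (adjusted p = 0.0303).

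In heme synthesis, breakdown and transport, the pathway of Hmox1, 2 of 13 genes were lower, 0 were higher (limma, also 0 at an unadjusted p under 0.05) and the median was -0.06 log2. Without single libraries the lower count ran from 0 to 3 and was below 2 in 27 of 36 cases, and 11.4% of all genes were lower. The constitutive heme oxygenase Hmox2 averaged 54.2 ± 5.92 FPKM under normal chow and 49.9 ± 3.32 FPKM under the high-fat diet and fell by 0.11 log2 (SE 0.04, limma adjusted p = 0.0398). The iron exporter ferroportin, Slc40a1, fell by 0.33 log2 (SE 0.12, adjusted p = 0.0469). Both calls were lost with median ratio rescaling. Alas1, which begins heme synthesis, measured 86.4 ± 29.7 and 68.4 ± 18 FPKM (-0.29 log2, adjusted p = 0.0585). Alas1 was rhythmic under normal chow, with a peak at 15.3 h (1.02 log2 from trough to peak, adjusted p = 0.0305), as was the biliverdin reductase gene Blvra, with a peak at 9.74 h (adjusted p = 0.0411).

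Gpx1, Gpx3 and Txnrd1 need selenocysteine, and of 16 genes of the selenocysteine machinery and other selenoproteins 3 were lower and 0 higher (limma, 4 and 2 at an unadjusted p under 0.05), with a median of -0.03 log2. Selm, a selenoprotein of the endoplasmic reticulum, averaged 77.1 ± 12.4 FPKM under normal chow and 51.7 ± 9.37 FPKM under the high-fat diet and fell by 0.58 log2 (SE 0.06). Eefsec, the elongation factor that brings selenocysteine to the ribosome, fell by 0.22 log2 (SE 0.06, limma adjusted p = 0.0078), and Vimp by 0.15 log2 (SE 0.05, adjusted p = 0.0468). Rhythm calls in this list numbered 0 in each diet (limma, 4 with normal chow and 2 with high-fat feeding at an unadjusted p under 0.05). The shares of all genes called were 7.77% and 7.3%.

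The levels of segment markers differed between diets too. Proximal tubule markers summed to a median of 7197 FPKM under normal chow and 6502 FPKM under the high-fat diet, with 4 of 10 lower and 1 higher. The sum follows its largest genes: Miox averaged 3598 and 2915 FPKM, and Slc34a1 2310 and 2291 FPKM. Of 7 markers of the thick limb, distal tubule and collecting duct 4 were lower. Markers of endothelium and podocytes had 0 level calls among 5 tested each (limma, 1 and 0 at an unadjusted p under 0.05). Of 8 adipocyte markers 6 were lower and 1 higher, and of 9 adrenal markers 1 was lower. Beside these marker counts, 11.4% of all genes were lower and 5.25% higher. With the adipocyte score as a covariate Gclc had -0.52 log2 (adjusted p = 0.00127) and Nqo1 -0.28 log2 (adjusted p = 0.00662). With the added red blood cell score they had -0.60 log2 (adjusted p = 0.00029) and -0.23 log2 (adjusted p = 0.04997). The part of tubule segments in the level changes of the members was not tested.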

How the data were processed

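RNA of mouse kidney was sequenced in 36 TruSeq libraries, per the labels' protocols. The deposited values are FPKM in 1 table per diet. The submitters' processing notes name CASAVA 1.8.2, Cuffnorm, Bowtie and build mm10. The sources used here do not state the other versions or the normalization. FPKM is not a count, so no count model was run.

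The 817 rows of 280 repeated symbols were left out. Values were log2(FPKM + 0.5), for 11144 genes with a mean of at least 1 FPKM. Tests used limma 3.58.1 with a mean-variance trend in R 4.3.3, with Benjamini-Hochberg adjustment over all 11144 genes and a threshold of 0.05. Rhythm was a moderated F test of 24 h cosine and sine terms in the 18 libraries of a diet, the difference in rhythm their interaction with diet in 36, and the level contrast used 12 group means. A fold or log2 change on this scale understates that of low genes. No 2 libraries held identical values. GC content came from GENCODE M21 transcripts, for 99.52% of genes.

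Named genes were all 10 members and, from each pathway list, up to 4 genes with the smallest p of level and 2 of rhythm. The members and lists were chosen with earlier results of these data known. The fits were tested on simulated data. Alternatives were other pseudocounts, filters, rescalings, GC correction, a replicate block, a robust prior, time as a factor, 1 fit over all libraries, covariates, and leaving out libraries or times.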

Additional observations from a re-analysis of the deposited data

How the results depend on the processing

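The level calls of Hmox1, Nqo1 and Gclc held at every setting tried, with changes from -0.35 to -0.25, -0.28 to -0.17 and -0.60 to -0.40 log2. The members called lower were 4, or 3 where Keap1 was lost, as it was with both rescalings, the GC correction with or without the block, and each covariate, and also without the adrenal libraries, where Txnrd1 replaced it. Without ZT0 and ZT4, 1 member was higher (Nfe2l2, 0.23 log2). Gpx1, at 0.00 log2, changed sign with the adipocyte score (-0.018) and without 18 of the 36 libraries in turn (-0.035 to 0.034). Rhythm calls under the high-fat diet were 2, but 5 with time as a factor and 6 with time as a factor after GC correction, a setting added after the data were seen in which 2523 of 11090 genes passed. Under normal chow they were 3, but 1 with time as a factor and 2, Hmox1 and Nqo1, with time as a factor after GC correction. Leaving out single libraries gave 2 to 3 rhythm calls in each diet and 4 lower calls.

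At ZT4 0 members were called, but 5 without the adrenal libraries, when normal chow held replicate 4 alone there, 1 with the added red blood cell score, and 0 to 2 without single libraries, 2 being the count without normal chow ZT4 replicate 2. At ZT0 the count was 0 to 1 without single libraries: 1, Hmox1, without normal chow ZT0 replicate 4, any of its ZT4 replicates, or high-fat ZT4 replicate 3.

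Same-numbered libraries of different groups correlated at a mean of 0.03 over all genes (lowest -0.61), and 4 of 36 correlated best with their own number. The main fits did not use the numbers as pairs. Correlations over all genes do not show whether single genes follow the number. Nfe2l2 was highest in replicate 1 in every group with that replicate (28.2 FPKM against 25.8 and 22.4 at high-fat ZT16). Hmox1 was not (43.7 FPKM against 54.5 in replicate 5 at normal chow ZT0). With the replicate block, high-fat rhythm calls were 4, Nqo1 (0.61 log2, adjusted p = 0.0184) and Gclc (0.84 log2, adjusted p = 0.0274) being added, and the swing of Gclc was then wider than that of Hmox1 (0.71 log2), and with block and GC correction 1 member, Gclc, was called at ZT20, and the high-fat rhythm of Srxn1 was lost (adjusted p = 0.0929).

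The depth of sequencing is unknown, so no limit from counting can be given. At single times the standard error was 0.15 log2 for Hmox1 and 0.22 for Gclc, and 0 members passed (limma).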
